A study of Homo sapiens with 12 samples.

Results

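Olfactory receptor (OR) genes encode the odorant-sensing G protein-coupled receptors of the nose, and the largest human gathering of them lies on chromosome 11. The genes described here were the protein-coding genes of chromosome 11 whose symbols read OR, digits, letters and digits in GENCODE on GRCh37. The rule reads symbol and position and no measured value, and it takes these promoters as ones expected to be silent in a cell that is not an olfactory neuron. The rule found 171 of 20136 protein-coding genes. In symbol families OR51 to OR56, the class I receptors, there were 55 genes, and the other 116 were class II.

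H3K4me3, trimethylation of lysine 4 on histone H3, is a mark of active and poised promoters. It was profiled by CUT&RUN, in which a nuclease is brought to antibody-bound sites in opened cells, and the DNA it cuts free is sequenced. The cells were BON1, a human pancreatic neuroendocrine tumor line. Both lines carried the TGL construct and were grown in puromycin: control cells had the label pQ, and the other cells overexpressed HA-tagged Bcl-xL, a protein that blocks apoptosis. Each condition had 500000 cells and 3 replicates with the H3K4me3 antibody and 3 with a control IgG, a rabbit anti-mouse antibody. Whether either line is a single clone is not given in the labels. Replicate 1 of HA-Bcl-xL H3K4me3 is not analysed here, which left 5 H3K4me3 and 6 IgG libraries. The labels do not say whether replicates were separate cultures, so p-values measure only the spread between these libraries.

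In the nose, each mature olfactory neuron transcribes a single OR allele. The other OR genes are packed in heterochromatin carrying H3K9 and H4K20 methylation, and enhancers bound by LHX2, EBF proteins and LDB1 act on the chosen gene. Class I receptors resemble the receptors of fish, and class II receptors make up most of the mammalian repertoire. Most OR genes have CpG-poor promoters and a coding sequence within a single exon.

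The promoters themselves are shown first, because low numbers of CG dinucleotides are common to most of them. RefSeq promoter sequences on GRCh38.p14, 250 bases before to 50 after each gene's start, were matched by symbol for 133 of the 171 genes. The 250 bases before the start are printed 5′ to 3′ on the gene's strand, with CG dinucleotides in capitals. OR5B3 (chr11:58406875-58407124, minus strand) was the gene with a peak, in an IgG library. OR51E1 (chr11:4643732-4643981, plus strand) is a class I receptor described outside the nose, including in prostate and neuroendocrine tumors. OR10A2 (chr11:6862807-6863056, plus strand) was the alphabetically first class II gene. OSBP (chr11:59615775-59616024, minus strand), a sterol-binding lipid transfer protein gene inside an OR cluster, is a contrast chosen after its values were seen.
OR5B3: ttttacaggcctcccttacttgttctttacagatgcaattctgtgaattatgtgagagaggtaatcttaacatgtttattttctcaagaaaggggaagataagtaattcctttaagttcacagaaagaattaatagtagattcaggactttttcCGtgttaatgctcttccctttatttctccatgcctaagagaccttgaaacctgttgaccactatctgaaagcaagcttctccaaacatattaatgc
OR51E1: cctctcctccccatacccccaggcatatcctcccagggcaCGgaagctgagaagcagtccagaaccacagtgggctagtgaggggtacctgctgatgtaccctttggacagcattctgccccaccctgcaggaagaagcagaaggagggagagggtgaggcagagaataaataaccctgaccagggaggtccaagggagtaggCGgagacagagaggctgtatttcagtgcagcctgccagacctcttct
OR10A2: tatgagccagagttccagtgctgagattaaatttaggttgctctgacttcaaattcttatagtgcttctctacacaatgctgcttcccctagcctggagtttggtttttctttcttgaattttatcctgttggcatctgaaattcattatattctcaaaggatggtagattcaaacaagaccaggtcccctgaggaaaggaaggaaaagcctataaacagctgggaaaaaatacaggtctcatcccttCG
OSBP: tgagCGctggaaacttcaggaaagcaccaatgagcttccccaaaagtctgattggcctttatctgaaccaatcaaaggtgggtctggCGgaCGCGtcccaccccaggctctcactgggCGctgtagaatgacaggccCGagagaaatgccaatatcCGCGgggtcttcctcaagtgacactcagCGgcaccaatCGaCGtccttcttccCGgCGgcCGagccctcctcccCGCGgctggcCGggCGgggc
Of these stretches, that of OR51E1 had a GC content of 57.6%, near the 61.2% of OSBP. In CG dinucleotides, OR5B3 and OR10A2 had 1 each and OR51E1 had 2, against 18 in OSBP.

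The same contrast held across the table. Over the 300 bases, the 133 matched OR promoters had a median of 1 CG (range 0 to 14), and the 27305 promoters in the table had a median of 14. There was no CG in 36 of the OR promoters (27.1%), against 4.16% of all promoters. The median GC content was 37% in the OR promoters and 58.3% in all.

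Motif letters were searched on both strands, and TAATTA and TATAAA can share end letters while CCCNNGGG can overlap neither. TAATTA, the core of homeodomain sites such as that of LHX2, was found in 31 OR promoters (23.3%) and in 4.98% of all promoters. TATAAA, the TATA box letters, was found in 47 (35.3%) against 12% of all. CCCNNGGG, the core of EBF sites, was found in 10 (7.52%) against 18.6% of all. By class, TAATTA was present in 6 of 38 class I promoters (15.8%) and 25 of 95 class II promoters (26.3%). The other motifs ran the opposite way, with TATAAA in 42.1% of class I and 32.6% of class II promoters and CCCNNGGG in 10.5% and 6.32%. These are counts of letters in windows that also differ in GC content, and do not show binding. The printed OR5B3 and OR51E1 stretches held none of the 3 motifs, and OR10A2 held TATAAA.

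Cell markers were read against the label. CHGB, a granule protein gene of neuroendocrine cells, had an H3K4me3 peak within 1 kb of its 5′ end in all 5 H3K4me3 libraries, and 5 of the 10 neuroendocrine genes had a peak in at least 1, near the 48.2% of all protein-coding genes that did. Besides CHGB, PCSK1, a prohormone convertase gene, was called in 3 libraries, SYP and TPH1 in 2 each and CHGA in 1. DDC, ENO2, INSM1, ISL1 and SCG5 were called in none. Of 8 genes of mature olfactory neurons, 1 was called in any library, against the same 48.2% of all genes: CNGA4, a cyclic nucleotide-gated channel subunit gene, in 1 library. ADCY3, CNGA2, GNAL, OMP, RTP1, RTP2 and STOML3 were called in none. The lists held 10247 to 17711 peaks in the H3K4me3 libraries, 1674 to 2113 in control IgG and 244 to 268 in HA-Bcl-xL IgG. The median peak had 9 to 12 fragments at its summit in the H3K4me3 libraries and 3 in control IgG. The HA-Bcl-xL IgG medians were 5 to 6. The total depth is unknown, because the lists hold peaks and no read totals.

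No chromosome 11 OR gene had an H3K4me3 peak within 1 kb of its 5′ end in any library. In control replicate 1 the count was 0 of 171, while 40.4% of all protein-coding genes were called. In control replicates 2 and 3 it was 0 of 171, against 32.4% and 28.2% of all genes. In HA-Bcl-xL replicates 2 and 3 it was again 0 of 171, against 38.1% and 36.5%. Each 0 of 171 allows a share of up to 1.75%, and the exact Clopper-Pearson 95% interval reached 2.13%. Over the 855 pairs of an OR gene and an H3K4me3 library there were 0 calls, which allows up to 0.351%. The same genes recur in each library, so these pairs are not independent. Limits and intervals here cover counting error over genes only. They take the OR genes as independent, although neighbouring OR genes can share a peak. Fragment numbers may also include PCR copies, which are not separate molecules. A gene without a call has no peak at the authors' threshold. The lists do not show how much signal lay under it.

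The IgG libraries gave the background rate at the same promoters. In control IgG replicate 1, 1 of 171 OR genes was called (0.585%, exact Clopper-Pearson 95% interval 0.0148 to 3.22%), against 0.253% of all protein-coding genes. It was 0 of 171 in control IgG replicates 2 and 3, where 0.223% and 0.243% of all genes were called. In HA-Bcl-xL IgG replicates 1 to 3 it was 0 of 171, against 0.0199%, 0.0397% and 0.00497% of all genes. The OR share was therefore within counting error of the all-gene share in every IgG library, and it was the H3K4me3 share that stood apart. In at least 1 H3K4me3 library, 48.2% of all genes were called, and in at least 1 IgG library 0.785%.

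**Figure D1:**
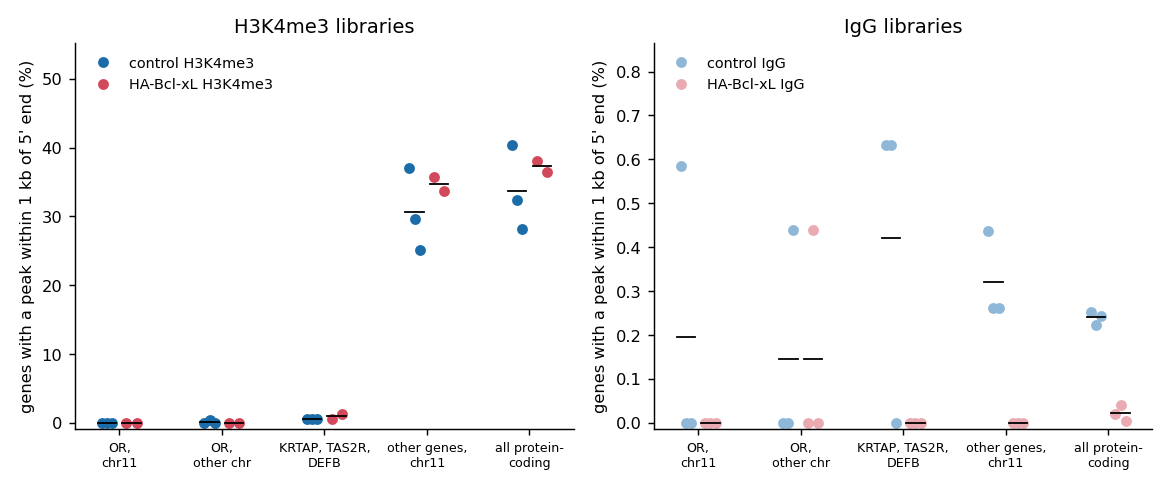
Share of genes with a peak within 1 kb of the 5′ end, for 5 gene sets, in H3K4me3 libraries (left) and IgG libraries (right, with a smaller scale). Each point is a library and each line the mean of its group; the chromosome 11 OR genes lie at 0 in all 5 H3K4me3 libraries, and 1 control IgG library lies at 0.585%.

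The single call was at OR5B3, a class II receptor gene (ENSG00000172769, chr11:58169937-58174347 on GRCh37, minus strand). The peak lay at chr11:58174007-58174090, which is 257 bp downstream of the 5′ end and inside the gene's intron before the coding exon. It was 84 bp wide and rested on 3 fragments at the summit, with the authors' fold of 3.84 and −log10 q of 2.55. It ranked at the 58.7 percentile of its own list. The bases under it, 5′ to 3′ on the plus strand of GRCh37, are shown because they carry the only call at these promoters; there was no CG dinucleotide to set in capitals.
OR5B3 peak: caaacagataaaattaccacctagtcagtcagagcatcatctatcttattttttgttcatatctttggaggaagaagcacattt
The 84 bases held 0 CG dinucleotides, and their GC content was 33.3%. No other library had a peak in this window. The nearest H3K4me3 peaks to the OR5B3 5′ end were 173092, 644153 and 173110 bp away in control replicates 1 to 3. In HA-Bcl-xL replicates 2 and 3 they were 173110 and 644695 bp away.

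The antibody comparison asked, gene by gene, whether a promoter was called in more of the 5 H3K4me3 than of the 6 IgG libraries. By Fisher's exact test with Benjamini-Hochberg adjustment over 20136 genes, 4247 genes (21.1%) passed, each called in 5 of 5 H3K4me3 and 0 of 6 IgG libraries (exact p = 0.00216, adjusted p = 0.0103). None of the 171 OR genes passed, and 0 had an unadjusted exact p under 0.05, against 5885 of all genes. For 170 OR genes the pattern was 0 of 5 and 0 of 6. OR5B3 had 0 of 5 and 1 of 6 (exact p = 1).

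Between the lines, no OR gene was called in both HA-Bcl-xL H3K4me3 libraries and in none of the control libraries, a pattern shown by 170 of all genes (0.844%). In the opposite pattern, all control and no HA-Bcl-xL libraries, there were 0 OR genes and 50 of all genes (0.248%). With 3 libraries against 2 no test can pass 0.05, and these counts are a description. The all-gene counts depended on single libraries. The HA-Bcl-xL pattern came to 613 genes without control replicate 1, and to 466 and 509 without HA-Bcl-xL replicates 2 and 3. The control pattern became 79, 130 and 170 without control replicates 1 to 3, and 233 and 154 without HA-Bcl-xL replicates 2 and 3. The OR count was 0 in each of these, as it had to be for genes called in no H3K4me3 library. At the main shares 0 of 171 is near the background.

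Among the 1146 other protein-coding genes of chromosome 11, 30.6% ± 6.0 (SD, n = 3) were called in control and 34.7% ± 1.42 (SD, n = 2) in HA-Bcl-xL H3K4me3 libraries. Other gene families restricted to particular tissues were close to the OR genes. Of the 228 OR genes on other chromosomes, 1 had an H3K4me3 call, OR1F1 on chromosome 16 in control replicate 2, with 5 fragments at the summit. Among 158 keratin-associated protein (KRTAP), bitter taste receptor (TAS2R) and beta-defensin (DEFB) genes, 2 had one. The bitter receptor gene TAS2R14 was called in all 5 libraries with up to 25 fragments at a summit, and passed the test above (adjusted p = 0.0103 by Fisher's exact test). DEFB125 was called in HA-Bcl-xL replicate 3 with 3 fragments. These 3 genes were named after their values were seen. IgG calls fell at 2 of the 228 OR genes (0.877%) and 2 of the 158 other genes (1.27%), near the 0.785% of all genes.

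The OR promoters lay at the low end of GC content. In the 2 kb around their 5′ ends GC was 28.1 to 53.0%, with a median of 39.0%, against a median of 55.0% for all genes. The number of CG dinucleotides there had a median of 12 (4 to 76), against 90. Of the 171 OR genes, 128 fell in the lowest of 10 equal GC groups of protein-coding genes and 36 in the next. Genes other than OR genes in the lowest group were called at a mean of 4.48% over the 5 H3K4me3 libraries (3.80 to 5.30%). In the next group the mean was 21.5% (18.1 to 23.9%). The low GC content thus goes with a low share in other genes too. The OR counts were 0 of 128, which allows up to 2.34%, and 0 of 36, which allows up to 8.33%. These limits take neighbouring OR genes as independent, and GC content was not matched inside a group. Whether GC content accounts for the OR counts was not tested.

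The other 7 OR genes lay in GC groups 3 to 5, where other genes were called at means of 40.4 to 48.2%. They were OR51E1, OR52B6, OR10Q1, OR8B4, OR51D1, OR52W1 and OR56A3, in rising order of group. OR56A3 had the highest GC content, 53.0%, with 76 CG dinucleotides, and its 5′ end lies beside that of TRIM5, an antiviral gene on the opposite strand. TRIM5 was not called at that end either, though at another of its annotated starts, whose nearest OR gene is OR52P1, HA-Bcl-xL replicates 2 and 3 each had a peak. OR10Q1 had 71 CG at 48.7% GC. None of the 7 was called in any library.

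**Figure D2:**
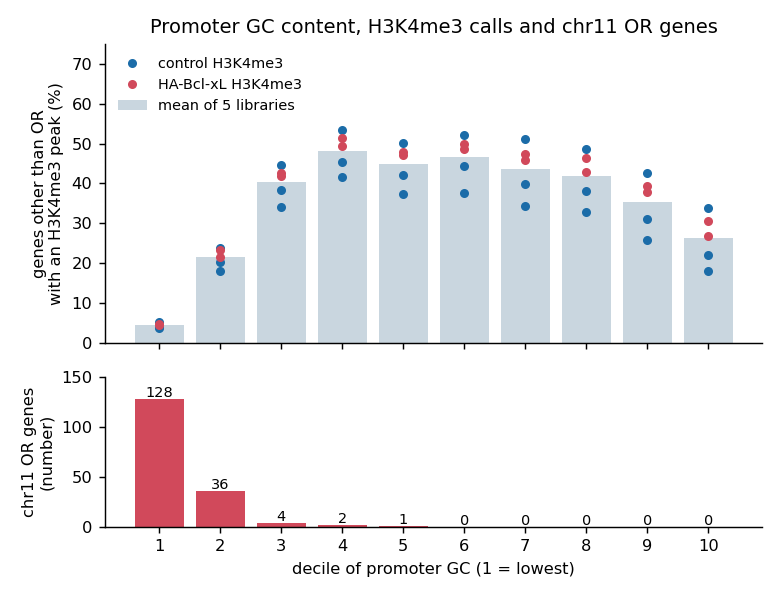
Top, share of genes other than OR genes with an H3K4me3 peak within 1 kb, by group of promoter GC content, with each library as a point and the mean as a bar. Bottom, number of chromosome 11 OR genes per group; 164 of 171 lie in the 2 lowest groups, where the mean share of other genes called was 4.48% and 21.5%.

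Many OR genes are close copies of each other, and whether reads that match several places were kept is not given in the sources used here, so the uniqueness of each 2 kb window was measured. The share of 50-base words found nowhere else in GRCh37 had a median of 100% over the 171 OR genes, and was at least 90% for 151. OR1S1 had the lowest share, 67.4%, and no OR gene was under 50%. Annotation is a further limit: for 78 OR genes the annotated 5′ end is the coding start, so an upstream exon may be missing from the model. For 70 others the coding start lies over 1 kb inside the gene. With windows placed at the coding start, no OR gene had an H3K4me3 call and none an IgG call.

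OR51E1 and OR51E2 are the members best described outside the nose, OR51E2 as a prostate receptor. OR51E1 (chr11:4664650-4676718 on GRCh37, plus strand) had 48.7% GC with 21 CG. Its nearest H3K4me3 peaks were 35525, 35162 and 846864 bp away in control replicates 1 to 3. In HA-Bcl-xL replicates 2 and 3 they were 35101 and 133874 bp away. OR51E2 (chr11:4701401-4719084, minus strand) had 35.5% GC with 14 CG, and its nearest peaks lay 89959, 89596 and 901298 bp away in control and 89535 and 188308 bp away in HA-Bcl-xL libraries. For both, control replicate 3 was farthest, and that library had the fewest peaks. Neither gene was called in any of the 11 libraries.

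Peaks were farther from most OR genes than from other genes of the chromosome. The nearest H3K4me3 peak of any library was a median of 123159 bp from the 5′ end, and for 99 of 171 OR genes it was over 100 kb away. Over all protein-coding genes the median was 1259 bp, and over the other genes of chromosome 11 it was 1810 bp. The distance was not particular to the chromosome 11 OR genes: the median was 79096 bp for OR genes of other chromosomes and 136910 bp for the KRTAP, TAS2R and DEFB genes. Within the OR genes, the median was 127233 bp for class I and 118389 bp for class II. Within 25 kb there were 11 OR genes with a peak in some library, within 10 kb 3, and within 2.5 kb 1. By contrast, the medians of all protein-coding genes and of other chromosome 11 genes lay within 2.5 kb. OR5T3, the nearest OR gene, had a peak 1491 bp downstream in control H3K4me3 replicate 3 (chr11:56021167-56021270), past the end of the gene. It had 3 fragments and a −log10 q of 3.15. OR10Q1 and OR1S1 shared a peak of 4 fragments in HA-Bcl-xL replicate 2, 6879 and 9234 bp from their 5′ ends. Each was a peak of 1 library, and OR5T3, OR10Q1 and OR1S1 were singled out after their values were seen.

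IgG peaks came as near. In control IgG replicate 2, OR4D5 and OR6T1 shared a peak 1268 and 2863 bp from their 5′ ends, and OR5W2 had one at 1893 bp, each with 3 fragments. In the same library OR8B2 had a peak at 5811 bp. OR4A8 had one 3040 bp upstream in control IgG replicate 3, with 4 fragments. At 10 kb the number of OR genes with a peak was 0, 0 and 1 in control H3K4me3 replicates 1 to 3. In HA-Bcl-xL replicates 2 and 3 it was 2 and 0. It was 1, 4 and 1 in control IgG and 0 in each HA-Bcl-xL IgG library. As shares this was 0 to 1.17% in the H3K4me3 and 0.585 to 2.34% in the control IgG libraries. Among the other genes of chromosome 11 the shares at 10 kb were 33.6 to 47.9% and 1.83 to 2.01%, so the control IgG share at OR genes was near the ordinary share. At 100 kb the H3K4me3 counts were 21 to 36, and the control IgG counts 16 to 24. The HA-Bcl-xL IgG counts at this distance were 3, 0 and 0 in replicates 1 to 3. The OR shares were thus 12.3 to 21.1% in the H3K4me3 and 9.36 to 14.0% in the control IgG libraries. For the other genes of chromosome 11 they were 65.4 to 75.8% and 12.3 to 18.8%, and 1.22 to 3.05% in HA-Bcl-xL IgG libraries.

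Regions present in all 5 H3K4me3 libraries were farther still. OR6X1 was nearest, 12732 bp away, followed by OR4D9 at 38923 bp and OR4D11 at 46715 bp, and no OR gene was within 10 kb. The peak near OR6X1 lay 12732 to 12763 bp from its 5′ end in all 5 libraries. OR4D9 and OR4D11 are neighbours and share the same region.

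**Figure D3:**
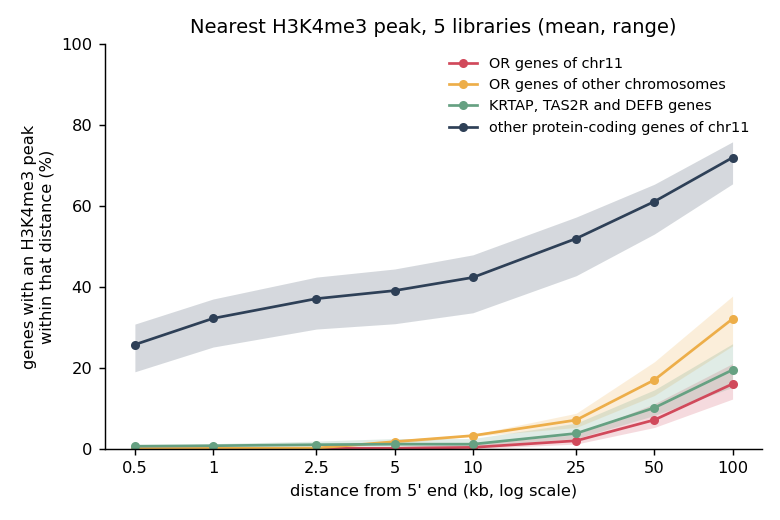
Share of genes with an H3K4me3 peak within a given distance of the 5′ end (log scale), as the mean of 5 libraries with their range shaded. Among the chromosome 11 OR genes 0% were called at 1 kb in every library and 12.3 to 21.1% at 100 kb, against 65.4 to 75.8% for other genes of chromosome 11.

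The OR genes form clusters, defined here as at least 3 OR genes with starts within 500 kb of the next. There were 9 clusters covering 5.83 Mb and 168 OR genes, with OR4C13, OR4C12 and OR2AT4 outside them. Cluster 1 (chr11:4388493-6221416) held all 55 class I genes, from OR52B4 to OR52W1, together with 19 other protein-coding genes including the beta-globin and several TRIM genes. Cluster 6 (chr11:55110677-56757318) was the largest class II cluster, with 48 OR genes. Cluster 9 (chr11:123624288-124452838) had 22, cluster 7 (chr11:57791353-58275578) 13, and clusters 2 to 5 and 8 had 3 to 8 each.

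Inside the clusters, 4 of 30 other protein-coding genes (13.3%) had an H3K4me3 call in at least 1 library, against 48.2% of all genes. OSBP was called in all 5 and passed Fisher's exact test (adjusted p = 0.0103). PATL1, an mRNA decapping factor gene beside it in cluster 8, was called in 4 (adjusted p = 0.0518, Fisher's exact test). TRIM68, a ubiquitin ligase gene in cluster 1, was called in 3, and the fourth gene, VWA5A in cluster 9, in 1. Of the 30, 6 carry OR symbols ending in P that GENCODE annotates as protein-coding, and none of these was called; without them the count was 4 of 24 (16.7%). The calls in cluster 8 show that the mark was detected within the span of an OR cluster, at OSBP and PATL1, but not beside an OR gene. The nearest OR 5′ end was that of OR10V1. It was 97301 to 98483 bp from the regions at OSBP and 44518 to 45478 bp from those at PATL1. Neither OR10V1 nor OR4D9, on the other side of the peaks, was called.

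**Figure D4:**
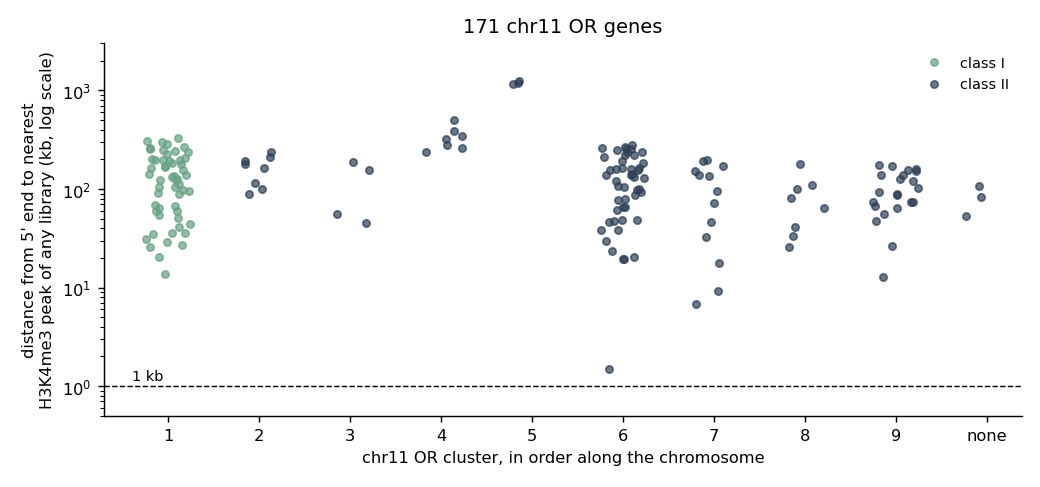
Distance from the 5′ end of each of the 171 OR genes to the nearest H3K4me3 peak of any library (log scale), by cluster in order along the chromosome, with genes outside clusters at the right and the 1 kb limit dashed. No gene lies under the line; the nearest is OR5T3 at 1491 bp in cluster 6.

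H3K4me3 peaks were sparse in the clusters. The 5 libraries had 6 to 12 peaks each there, or 1.03 to 2.06 per Mb, with a mean of 1.65. On the rest of chromosome 11 there were 3.22 to 5.83 per Mb, with a mean of 4.72, so the ranges did not overlap. Counted only over 5 kb from the starts of other protein-coding genes, the order of the means turned. They were 0.996 per Mb in the clusters (0.738 to 1.48) and 0.590 on the rest of chromosome 11 (0.395 to 0.789). Over the whole genome outside the clusters the mean was 0.928 (0.671 to 1.10).

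The cluster value rested on cluster 8. It is the densest, at 18.0 peaks per Mb over all positions, and held 12 of the 25 H3K4me3 regions found in the clusters. Of its regions, 1 at chr11:59317764-59317937, inside the lncRNA gene ENSG00000287264, was present in all 5 libraries, as was 1 at OSBP. Without cluster 8, a step chosen after seeing its peaks, the density over 5 kb from other starts was 0.313 per Mb (0 to 0.587). This was below the range of the genome outside the clusters and overlapped that of the rest of chromosome 11. With a 200 kb gap between neighbours in place of 500 kb the density was 0.304, so the turned order against the rest of chromosome 11 did not hold there. It is not a separate check, because that gap also splits off the stretch between OR4D9 and OR10V1, where the cluster 8 peaks lie. Clusters 2 to 5 had 0 H3K4me3 peaks in all 5 libraries. The span of cluster 1, which holds the class I genes, had 9 peaks summed over the libraries, or 0.982 per Mb. Those over 5 kb from other starts were 2, both in 1 library, and the nearest class I 5′ end to any peak, that of OR52I1, was 13740 bp away.

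Most of these regions were seen once. Of the 25, 16 were present in 1 library, 9 in at least 2, and 9 lay within 1 kb of a start of another protein-coding gene, any transcript's start included. Among the 16 over 5 kb from other starts, 12 were in 1 library. IgG lists had 14 peaks in the clusters, 13 in control and 1 in HA-Bcl-xL libraries, and 12 of them rested on at most 3 fragments. By group, IgG density over 5 kb from other starts was 0.738 ± 0.185 per Mb (SD, n = 3) in control and 0.0615 ± 0.107 (SD, n = 3) in HA-Bcl-xL libraries. Over the genome outside the clusters it was 0.609 ± 0.0876 and 0.0919 ± 0.00522 (SD, n = 3 each), so the libraries' ranges inside and outside the OR clusters overlapped in both lines.

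**Figure D5:**
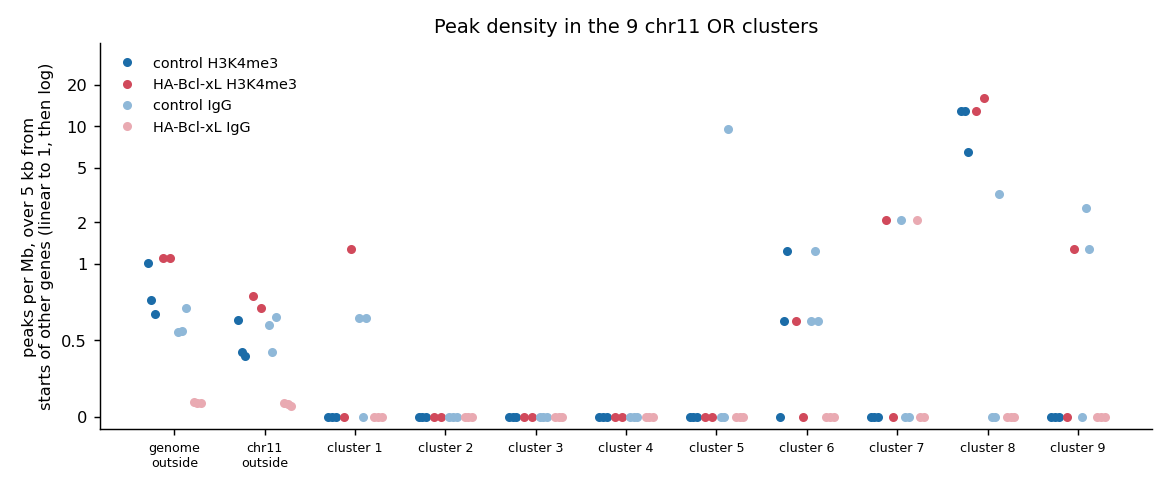
Peaks per Mb over 5 kb from the starts of other protein-coding genes, outside the clusters and in each of the 9 clusters (linear to 1, then log scale), with each library as a point. Cluster 8 holds H3K4me3 peaks in all 5 libraries, and clusters 2 to 5 hold none.

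The windows of 1 kb on each side of the OR 5′ ends cover 0.342 Mb in all. At the genome's own density over 5 kb from gene starts, that length would hold 0.230 to 0.377 H3K4me3 peaks per library, and 1.59 over the 5 libraries. For IgG it would hold 0.0298 to 0.243 per library and 0.720 over the 6. Seen against this, 0 H3K4me3 peaks and 1 IgG peak differ little from the peak density away from promoters. The length is too short for these lists to show whether OR promoters lie above or below that density.

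The genes that act with the receptors were read from lists. Of 12 odorant signalling genes, 0 were called in all 5 H3K4me3 libraries and 2 in any (all genes 21.3% and 48.2%). RIC8B, a chaperone of the olfactory G protein, was called in 3 and CNGA4 in 1. ADCY3, the olfactory adenylyl cyclase gene, CNGA2, a channel subunit gene, and CNGB1 were called in none. The receptor transport genes REEP1, RTP1 and RTP2 had no call. Of 10 receptor choice genes, 4 were called in any library (48.2% of all genes) and 3 passed Fisher's exact test (adjusted p = 0.0103), near the 21.1% of all genes that passed. The 3 were called in 5 of 5 libraries: ATF5, a stress-response factor gene, KDM1A, a lysine demethylase gene, and LDB1. BPTF, EBF2, EBF3, EBF4, EMX2 and LHX2 had none. EBF1 was called in 2 libraries. Of 12 heterochromatin silencing genes, 9 were called in any library and 4 passed, against the same 48.2% and 21.1% of all genes. The 4 were called in 5 of 5: CBX1, an HP1 gene, SETDB1 and SUV39H2, which are H3K9 methyltransferase genes, and TRIM28, a corepressor gene. CBX3, KMT5B and SUV39H1 had no call. The median number of libraries with a call was 0 in the signalling list, as over all protein-coding genes, and 3.5 in the silencing list.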

How the data were processed

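CUT&RUN with an H3K4me3 antibody or control IgG was done in control and HA-Bcl-xL BON1 cells, and 11 peak lists in narrowPeak format were used, 1 per library, not pooled. The submitters' processing notes name bcl2fastq 2.20, Trimmomatic 0.36, Bowtie2 2.2.9, MACS2 2.1.1, deepTools 3.5.1 and hg19, with no role or order. Duplicate treatment and the control used for calling are not given in the sources used here. For each peak the deposited lists give a score, a fold, a −log10 p and a −log10 q, and the lowest deposited −log10 q was 2.00. Within each list they were used for ranks, filters and description. Fragments at the summit were solved from the authors' fold and −log10 p, reading fold as (n + 1) / (background + 1) and p as a Poisson tail. In each list 95.9 to 99.97% of peaks had a whole n within 0.001 of the −log10 p.

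A gene was called in a library where at least 1 bp of a peak lay within 1 kb of its most 5′ annotated end (GRCh37, GENCODE release 44 lifted to it). Coordinates are 1-based. Each gene's libraries with a call were tested by a two-sided Fisher's exact test, H3K4me3 against IgG over both lines, with Benjamini-Hochberg adjustment over 20136 genes and a threshold of 0.05. All other values are counts, shares and exact Clopper-Pearson 95% intervals, with 3 counts of the total as the limit for a 0. Python 3.11.15, numpy 2.4.6, pandas 2.3.3, scipy 1.17.1 and matplotlib 3.10.9 were used, and the gene test and the fragment solution were tested on simulated data.

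The rule named OR genes called in any library, OR51E1, OR51E2 and the 3 OR genes nearest to a region in all 5 H3K4me3 libraries. It added other genes in a cluster called in at least 3, and examples of genes of the lists called in all or no library. CHGA, SYP, TPH1, PCSK1, RIC8B, CNGA4, EBF1, VWA5A and TRIM5 fall outside the rule and were named after their values were seen. The same holds for OR4A8, OR4D5, OR5W2, OR6T1 and OR8B2, named for nearby IgG peaks, and for OR genes named for GC content or uniqueness. The OR genes, lists and tests were chosen with earlier results of these data known. Alternatives were other windows (500 bp, 2.5 kb), starts, peak thresholds (−log10 q of 5, 5 fragments), list lengths, summits, removal of IgG overlaps, a 200 kb cluster gap, added pseudogenes and leaving out each library. Replicate 1 of HA-Bcl-xL H3K4me3 is not analysed here.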

Additional observations from a re-analysis of the deposited data

How the results depend on the processing

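Of 121 recomputed values, 97 were counted as the same and 24 as moved. A value was the same if it changed by less than a set factor or stayed at 0. For the density the limit was its SD over libraries, 0.309. Of the 121, 77 were counts of OR genes, and many of those were held at 0 by the setting itself, so the 97 overstates stability. The number of OR genes with an H3K4me3 call was 0 and became 1 within 2.5 kb and 2 with pseudogenes added. Leaving out a library could only keep it at 0. The number with an IgG call was 1. It became 0 at a −log10 q of at least 5, with equal list lengths, at the coding start and with at least 5 fragments. It was 3 within 2.5 kb, 2 with pseudogenes added, and 0 to 1 with a library left out, 0 being without control IgG replicate 1. Genes called by Fisher's exact test (4247) fell to 3087 at a −log10 q of at least 5 and to 3603 with equal list lengths. They became 6980 within 2.5 kb and 7239 at the 5′ end of any transcript, and 4248 to 5115 with a library left out. In a replicate block over same-numbered libraries, an exact McNemar test added after seeing the data, 0 genes were called, since 5 pairs cannot give a p under 0.0625. At that p were 4248 genes and 0 OR genes. Genes called in control only (50) became 79 with equal list lengths and 79 to 233 with a library left out. Genes called in HA-Bcl-xL only (170) became 218 to 613 with a library left out. OR genes stayed at 0 in both patterns with equal list lengths, a step that only shortens lists and cannot add a call. The H3K4me3 density of 0.996 per Mb in the clusters became 0.304 with a 200 kb gap, 0.480 at a −log10 q of at least 5, 0.313 without cluster 8 (added after seeing the data), and 0.876 to 1.06 with a library left out. The lists hold no signal below the authors' threshold, so weak marking of OR promoters was not detectable.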

Other observations

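OR genes of chromosome 11 with symbols ending in P, most of them pseudogenes, gave a further view of the background. Of 196 such genes, 6 are annotated as protein-coding and are the 6 counted among the other genes of the clusters. Of the 196, OR51P1P and OR4A1P were each called for H3K4me3 in 1 library, by the same 1 kb window. Among all protein-coding genes, 48.2% were called in at least 1 H3K4me3 library. OR8C1P was called for IgG in 1 library. That is 1 of 196, near the 0.785% of all genes called in at least 1 IgG library. These are values only, and the genes were named after the values were seen.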
